A study of Mus musculus with 4 samples.

Results

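Type 2 conventional dendritic cells (cDC2) of the mouse hindpaw were described in single-cell RNA-seq libraries of CD45+ leukocytes. A barcode was counted as a cDC2 when it held at least 200 detected genes and at most 10% mitochondrial UMIs, at least 3 UMIs of Cd209a and Mgl2 together, at least 10 UMIs of H2-Aa, fewer than 5 UMIs of C1qa, C1qb and C1qc together, fewer than 3 UMIs of Cd207, and no UMI of Xcr1, Cd3e or Cd79a. A UMI (unique molecular identifier) marks 1 captured RNA molecule. By this rule 2048 of 27800 kept barcodes were cDC2, out of 30793 barcodes in the files, with 555 (WT) and 450 (DB) at 12 weeks, and 848 (WT) and 195 (DB) at 21 weeks.

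The study compared male Lepr db/db mice (DB; strain C57BLKS/J-Dock7m +/+ Leprdb) with male Lepr WT/WT littermates (WT) at 12 and 21 weeks, ages that the labels call young and aged. Lepr db/db mice carry a germline mutation that disrupts the long, signalling form of the leptin receptor, and become obese and diabetic. Both hindpaws were digested with collagenase, and CD45+ cells of 2 to 3 mice were pooled, sorted and loaded as 1 library of the 10x Genomics 3′ v3 kit per condition. With 1 library per condition there is no replicate and no test between conditions. Values are therefore given with 95% intervals that cover counting error only, not the differences between mice or libraries.

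Conventional dendritic cells take up antigen in tissues, mature, and carry it through lymphatics to lymph nodes, where they present it to T cells. The cDC2 branch depends on the growth factor receptor Flt3 and the transcription factor Irf4, presents peptides on MHC class II to CD4+ T cells, and in skin bears C-type lectins such as Mgl2 (CD301b) and Cd209a. The cDC1 branch, marked by Xcr1 and driven by Irf8, specialises in presentation on MHC class I to CD8+ T cells.

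The members were chosen by the measured counts of Cd209a, Mgl2, H2-Aa, C1qa, C1qb, C1qc, Xcr1, Cd207, Cd3e and Cd79a, so the levels of these genes describe the choice and are no finding. Summed over members, Cd209a stood at 543, 417, 422 and 342 CPM, Mgl2 at 675, 875, 723 and 659 CPM and H2-Aa at 13294, 13427, 14669 and 12877 CPM (CPM, UMIs per 1000000 UMIs of all cDC2 in a library). Where 4 values follow each other here and below, WT precedes DB and 12 weeks precede 21 weeks. Both lectins were detected in 74.1%, 76.2%, 78.3% and 82.1% of members. Close to the limits, 31, 18, 46 and 12 members held exactly 3 UMIs of the lectins, against 39, 34, 68 and 12 barcodes that held 2 and passed the other limits. Another 61, 32, 43 and 9 members held 3 or 4 C1q UMIs, against 20, 13, 20 and 8 barcodes just outside with 5 or 6, and 4, 6, 9 and 2 members held 10 to 19 UMIs of H2-Aa, against 17, 7, 15 and 3 barcodes with fewer. Members carried a median of 12699, 11805, 13914.5 and 12281 UMIs, and the sums behind the CPM values were 7524099, 5667646, 12153311 and 2667124 UMIs. The 21-week-DB values thus rest on the fewest cells and UMIs.

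Of the barcode sequences, 154 occurred in both 21-week libraries, against 6 to 41 in the other pairs of libraries. Members held 1 sequence that was a member in more than 1 library. Doublets were not removed, and Scrublet scores cut at 0.8% per 1000 barcodes marked 9, 20, 36 and 9 members.

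The label was checked against Cd209d, Flt3 and Lmo1, the markers that the rule did not read. Cd209d, a C-type lectin of the same gene cluster as Cd209a, was measured at 499.9 CPM (WT) and 443 CPM (DB) at 12 weeks, and at 498 CPM (WT) and 447 CPM (DB) at 21 weeks. Flt3 stood at 148 CPM (WT) and 132 CPM (DB) at 12 weeks, and at 154 CPM (WT) and 102 CPM (DB) at 21 weeks. Lmo1, a LIM-domain transcription cofactor, stood at 224 CPM (WT) and 261 CPM (DB) at 12 weeks, and at 274 CPM (WT) and 242 CPM (DB) at 21 weeks. The 3 markers were present in every library, with the lowest Flt3 level in 21-week-DB. Cd209d had a UMI in 78.6%, 78.2%, 80.8% and 81.5% of cDC2 and in 3.55%, 1.71%, 3.0% and 0.502% of T cells, which should lack it, at median depths of 6288, 5484, 7175.5 and 5761 UMIs in T cells. After each cell was thinned to 2000 UMIs, which left out 1, 0, 2 and 0 cDC2, Cd209d was found in 48.7%, 47.8%, 49.1% and 41.5% of cDC2. Flt3 was found in 62.3%, 61.3%, 72.5% and 66.7% of cDC2 against 1.18%, 1.38%, 1.5% and 0.439% of T cells, and in 23.6%, 23.3%, 24.9% and 22.6% of thinned cDC2. Over all members of a library, nothing in these 3 markers goes against the label. Members were not uniform in them. Cd209d and Flt3 were called lower by edgeR in members with Mgl2 alone than in members with Cd209a alone, as described below. Lmo1 was not among the genes called there.

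Markers of other cell types were also found in the sums. The 15 macrophage markers summed to 987, 1060, 811 and 1041 CPM, led by the mannose receptor Mrc1, a gene that cDC2 also express. The 10 monocyte markers summed to 1171, 1444, 802 and 910 CPM, led by Ccr2, which is on the cDC2 identity list too, or in 21-week-WT by Fn1, and the 6 plasmacytoid DC markers to 310, 254, 271 and 181 CPM, led by Tcf4. The 8 cDC1 markers summed to 117, 113, 145 and 64.1 CPM, and the 5 Langerhans cell markers to 101, 61.6, 40.0 and 35.6 CPM. Neutrophil markers summed to 101, 18.3, 136 and 16.1 CPM, and were thus higher in both WT libraries, with S100a9 the most abundant except in 21-week-DB. T cell and ILC markers summed to 114, 130, 127 and 264 CPM, led by the interleukin-7 receptor Il7r, and B cell markers to 99.3, 62.1, 81.4 and 20.2 CPM, led by Ighm. Defining markers at 0 included Mertk (macrophages) and Ms4a1 (B cells) in 12-week-DB, and Cd8a (cDC1), Ms4a1 and Ebf1 (B cells) and Mmp9 (neutrophils) in 21-week-DB.

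As a share of kept barcodes, cDC2 were lower in DB at both ages. They made up 10.5% (95% Clopper-Pearson interval 9.71% to 11.4%) of 5271 kept barcodes in 12-week-WT and 6.87% (6.27% to 7.51%) of 6552 in 12-week-DB. At 21 weeks they made up 11.7% (10.9% to 12.4%) of 7270 in WT and 2.24% (1.94% to 2.57%) of 8707 in DB. The DB to WT ratio of shares was 0.652 (0.579 to 0.735) at 12 weeks and 0.192 (0.165 to 0.224) at 21 weeks. The intervals of DB and WT did not overlap at either age. Between ages the share differed little in WT, with a 21-week to 12-week ratio of 1.11 (1.0 to 1.23), and was lower in older DB, with a ratio of 0.326 (0.276 to 0.385).

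A share depends on what else was sorted, so other populations were counted the same way. The ratio of DB to WT for C1q+ macrophages (at least 20 C1q UMIs) was 0.777 at 12 weeks and 0.724 at 21 weeks, and for T cells (at least 2 Cd3e UMIs) 1.67 and 1.17. The cDC1, with at least 1 Xcr1 UMI, numbered 78, 40, 130 and 3, and their ratios were 0.413 (0.282 to 0.603) and 0.0193 (0.00614 to 0.0605). Counted among cDC2 and C1q+ macrophages alone, the cDC2 ratios were 0.879 (0.790 to 0.978) and 0.372 (0.324 to 0.428). Of the gated dendritic cells, cDC2 formed 86.3%, 87.4%, 86.0% and 93.8%.

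**Figure D1:**
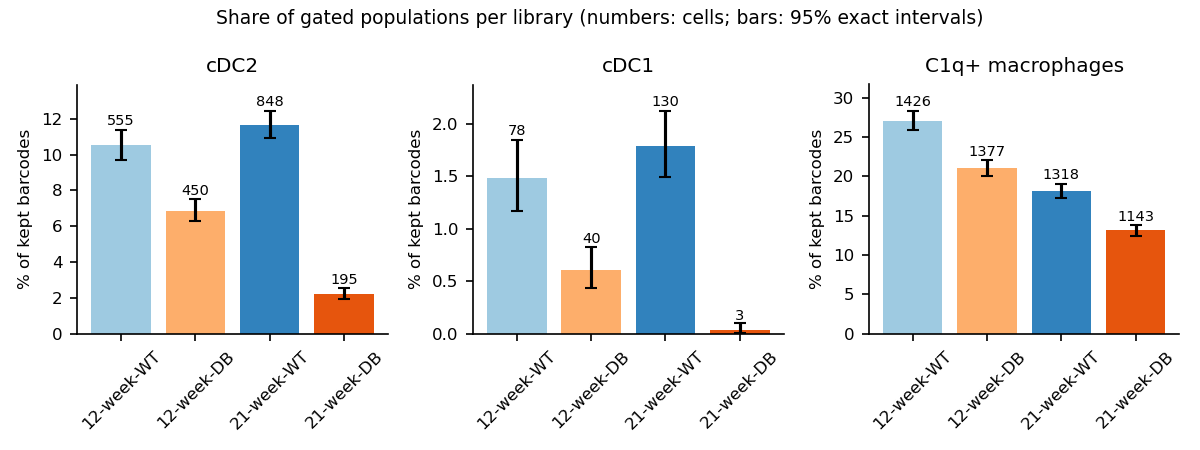
Share of kept barcodes (%, vertical axis from 0) that were cDC2, cDC1 or C1q+ macrophages in each of the 4 libraries, with 95% Clopper-Pearson intervals as error bars and cell numbers above the bars. The cDC2 bars stand at 10.5%, 6.87%, 11.7% and 2.24%, and 3 cDC1 were counted in 21-week-DB.

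Most genes that define the lineage differed by less than 2-fold between DB and WT. A gene was ranked in a comparison when it reached 100 CPM in the higher library and 50 UMIs over both, and was counted as higher or lower when it differed at least 2-fold. At 12 weeks 2 of 1511 ranked genes (0.132%) were higher in DB and 9 (0.596%) were lower. At 21 weeks 74 of 1447 (5.11%) were higher and 16 (1.11%) were lower. With a looser limit of 10 UMIs over both libraries and no CPM minimum, 321 (2.59%) of 12399 genes were higher and 525 (4.23%) lower at 12 weeks, and 865 (7.04%) of 12280 higher and 822 (6.69%) lower at 21 weeks, where both directions were nearly even. TMM scaling moved all 12-week log2 ratios by -0.01 and all 21-week ones by -0.06. Of the 25 genes of cDC2 and pan-DC identity, 17 were ranked at 12 weeks with none past 2-fold (median log2 ratio -0.11, against 0.02 over all ranked genes). At 21 weeks 16 were ranked (median 0.01, against 0.05) and 1 was lower, the brain-type creatine kinase Ckb, at 378 CPM (WT) and 351 CPM (DB) at 12 weeks, and at 270.3 CPM (WT) and 127 CPM (DB) at 21 weeks. At the looser limit 0 of 24 identity genes passed 2-fold at 12 weeks (median -0.11), and at 21 weeks 5 of 24 were lower (Kmo, Batf3, Itgax, Irf8 and Ckb), where 6.69% of all genes were, and Ifi205 was higher (median -0.07).

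Clec10a, the lectin paralogous to Mgl2, was measured at 183 CPM (WT) and 159.9 CPM (DB) at 12 weeks, and at 151 CPM (WT) and 153 CPM (DB) at 21 weeks. Irf4, the transcription factor of the branch, stood at 189 CPM (WT) and 176 CPM (DB) at 12 weeks, and at 174 CPM (WT) and 107 CPM (DB) at 21 weeks. Itgax, which encodes the integrin CD11c, stood at 204 CPM (WT) and 112 CPM (DB) at 12 weeks, and at 91.3 CPM (WT) and 41.2 CPM (DB) at 21 weeks. Itgax, which fell short of the 100 CPM limit at 21 weeks, was lower in DB at both ages and lower in the older mice of each genotype, with log2 DB to WT ratios of -0.87 (-1.0 to -0.73) and -1.15 (-1.44 to -0.86). Ccr2, the chemokine receptor that guides monocytes and cDC2 precursors out of blood, was measured at 571 CPM (WT) and 695 CPM (DB) at 12 weeks, and at 318 CPM (WT) and 533 CPM (DB) at 21 weeks. It was higher in DB than in WT at each age, with ratios of 0.28 (0.22 to 0.34) and 0.75 (0.66 to 0.83) on the log2 scale.

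Genes of MHC class I presentation lay below 0 on the log2 DB to WT scale in cDC2 at both ages, mostly by less than 2-fold. These encode the class I heavy chains, their light chain, and the proteasome and transport machinery that supplies peptides. All of the ranked members lay below 0, which were 9 of 9 at 12 weeks (median log2 DB to WT ratio -0.47) and 8 of 8 at 21 weeks (median -0.54), where 44.7% and 43.6% of all ranked genes did. Of the ranked members Tapbp alone passed 2-fold, at 21 weeks. At the looser limit, 17 of 18 members lay below 0 at each age (medians -0.40 and -0.54), against 49% and 48.3% of all genes. At that limit 2 were 2-fold lower at 12 weeks (Nlrc5 and H2-Q6) and 4 at 21 weeks (Nlrc5, Tapbp, Tap1 and H2-Q6). Of all genes 4.23% and 6.69% were.

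B2m, the light chain of every class I molecule, was measured at 1482 CPM (WT) and 953 CPM (DB) at 12 weeks, and at 1181 CPM (WT) and 801 CPM (DB) at 21 weeks. It was lower in DB at each age, by -0.64 (-0.68 to -0.59) and -0.56 (-0.63 to -0.49) on the log2 scale. The heavy chain gene H2-K1 stood at 868 CPM (WT) and 568 CPM (DB) at 12 weeks, and at 694 CPM (WT) and 352 CPM (DB) at 21 weeks, with log2 ratios of -0.61 (-0.67 to -0.55) and -0.98 (-1.08 to -0.88). Tapasin (Tapbp), which loads peptides onto class I, stood at 273 CPM (WT) and 185 CPM (DB) at 12 weeks, and at 199 CPM (WT) and 91.5 CPM (DB) at 21 weeks, and its ratios were -0.56 (-0.67 to -0.46) and -1.12 (-1.31 to -0.93). Both were lowest in 21-week-DB. The peptide transporter gene Tap1, below the ranking limit at 60.1, 41.6, 54.7 and 19.9 CPM, and Nlrc5, the transactivator of class I genes, at 12, 5.82, 9.22 and 4.12 CPM, were ordered the same way within each age. The C57BLKS/J strain carries another MHC haplotype than the mm10 reference, which both genotypes share, and reads of the near-identical heavy chain genes H2-K1, H2-D1, H2-Q6 and H2-Q7 cannot be fully told apart.

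Most class I genes lay below 0 in other populations too. In C1q+ macrophages 8 of 8 ranked members lay below 0 at 12 weeks (median -0.59) and 7 of 7 at 21 weeks (median -0.48), and in T cells 9 of 11 and 10 of 11 did (medians -0.34 and -0.40). Of these 2 and 3 were 2-fold lower in macrophages, where 21 of 1781 and 49 of 1689 ranked genes were, and 0 and 1 in T cells, where 3 of 1740 and 35 of 1598 were. Over all ranked genes the shares below 0 were 42.9% and 46.1% in macrophages and 40.7% and 47.8% in T cells. Gm42418, a transcript that overlaps ribosomal RNA repeats, followed the same order in cDC2 (60415, 40128, 71521 and 20339 CPM), as did the neutrophil markers given above. The part of either in these differences was not tested.

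Interferon-stimulated genes mostly lay below 0 in DB at the looser limit, while few were ranked. Of 3 ranked members 2 lay below 0 at 12 weeks (median -0.34) and 1 at 21 weeks (median 0.44, with Slfn2 2-fold higher and Ifi27l2a 2-fold lower). In C1q+ macrophages 4 of 5 ranked members lay below 0 at 12 weeks (median -0.65) and 1 of 4 at 21 weeks (median 0.20). At the looser limit, 24 of 26 members lay below 0 at 12 weeks, of which 10 were 2-fold lower and 0 higher, where 4.23% and 2.59% of 12399 genes were. At 21 weeks 20 of 26 lay below 0, with 12 members 2-fold lower and 2 higher, where 6.69% and 7.04% of 12280 genes were. Ifi27l2a, an interferon-inducible mitochondrial protein gene, stood at 185 CPM (WT) and 56.3 CPM (DB) at 12 weeks, and at 211 CPM (WT) and 22.1 CPM (DB) at 21 weeks. Both DB libraries held less of it, with log2 ratios of -1.72 (-1.90 to -1.54) and -3.26 (-3.65 to -2.88) and no other ranked gene was 2-fold lower at both. A UMI of Ifi27l2a was found in 62.7%, 31.3%, 59.6% and 15.4% of cDC2 (24.7%, 8.22%, 22.7% and 4.1% after thinning) and in 19.3%, 8.22%, 23.1% and 13.9% of T cells. In 21-week-DB the unthinned shares of cDC2 and T cells were close, though T cells held fewer UMIs per cell. The T cell share was also lower in DB at each age. In C1q+ macrophages Ifi27l2a stood at 651, 173, 468 and 188 CPM. Slfn5, a Schlafen family gene, was measured at 74.3 CPM (WT) and 37.9 CPM (DB) at 12 weeks, and at 65.3 CPM (WT) and 31.9 CPM (DB) at 21 weeks, again lower in both DB libraries (-0.97, interval -1.20 to -0.74 and -1.04, interval -1.38 to -0.71 on the log2 scale). The members that were 2-fold higher at 21 weeks were Isg15, a ubiquitin-like modifier, at 12.9, 11.5, 19.7 and 48 CPM, and Slfn2 at 219, 172, 259 and 626 CPM.

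The promoters of B2m and Slfn5 are shown because both genes lay below 0 at each age and both hold GAAA and GAAA spaced by 2 bases, the core letters of interferon-stimulated response elements. Each sequence is the 160 bases before the RefSeq start on the plus strand of GRCm38.p6 (mm10), with matches in capitals, B2m at chr2:122147527-122147686 and Slfn5 at chr11:82951942-82952101. The core letters of a kappaB site, GGGA and TTCC spaced by 2 bases, are held by B2m on the minus strand, so that the capitals show their reverse complement.
B2m: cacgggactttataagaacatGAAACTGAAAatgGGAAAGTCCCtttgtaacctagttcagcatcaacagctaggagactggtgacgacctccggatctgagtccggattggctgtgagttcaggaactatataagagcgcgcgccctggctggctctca
Slfn5: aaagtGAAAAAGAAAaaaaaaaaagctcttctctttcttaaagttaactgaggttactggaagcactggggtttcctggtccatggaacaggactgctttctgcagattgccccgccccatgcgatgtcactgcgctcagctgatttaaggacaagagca
The GAAA repeat begins 139 bases before the start in B2m and 155 in Slfn5, and the kappaB core of B2m 126 bases before it. Searched on both strands of the 250 bases before the start, the GAAA repeat was found in 11 of 21 promoters of the interferon-stimulated list in 2 of 16 of the class I list and in 3 of 20 of the cytokine list (Cxcl10, Tnfsf13b and Vegfa), against 2.98% of 32851 promoters. The motifs and the promoters shown were chosen after matches had been seen, and a match is a description of letters, not of a bound site.

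MHC class II genes differed by less than 2-fold between DB and WT among ranked members. None of the 9 ranked members passed 2-fold at either age, and their median log2 ratios were -0.04 and -0.18. At the looser limit 9 of 14 members lay below 0 at 12 weeks (median -0.05, with H2-Eb2 2-fold lower) and 11 of 14 at 21 weeks (median -0.32, with H2-Oa and H2-Eb2 2-fold lower). H2-Ab1, the beta chain of I-A, stood at 8486 CPM (WT) and 7959 CPM (DB) at 12 weeks, and at 9401 CPM (WT) and 7049.9 CPM (DB) at 21 weeks, with ratios of -0.09 (-0.11 to -0.08) and -0.42 (-0.44 to -0.39). Cd74, the invariant chain that guards the class II groove, stood at 22664 CPM (WT) and 22237 CPM (DB) at 12 weeks, and at 26167 CPM (WT) and 23173 CPM (DB) at 21 weeks. Both were highest in 21-week-WT. The same list had medians of -0.39 and -2.37 in C1q+ macrophages. Because the rule requires H2-Aa, cells with little class II could not be members.

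Cytokine and chemokine genes were mostly higher in DB at 21 weeks, and differed in both directions at 12 weeks. At 12 weeks 0 of 8 ranked members passed 2-fold (median log2 DB to WT ratio 0.04, against 0.02). At the looser limit 8 of 25 members did, with Ptgs2, Il1a, Il6 and Cxcl1 higher in 12-week-DB and Il10, Cxcl3, Il23a and Osm lower, where 2.59% of all genes were higher and 4.23% lower. At 21 weeks 12 of 15 were 2-fold higher in DB (median 1.40, against 0.05), where 5.11% of all ranked genes were. They were Ptgs2, Il1rn, Il1b, Il6, Cxcl1, Cxcl2, Cxcl10, Cxcl16, Ccl2, Ccl7, Ccl3 and Tnf. Il6, Ccl7, Il1rn, Cxcl1 and Cxcl10 reached the ranking limit of 100 CPM in 21-week-DB alone, so the limit itself partly sets this count. At the looser limit 18 of 27 were higher and 1, Ccl24, lower (median 1.30), where 7.04% and 6.69% of all genes were. Of 12 ranked members in C1q+ macrophages 2 were 2-fold higher (median 0.18), where 41 of 1689 ranked macrophage genes were.

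Il1b, which encodes the cytokine interleukin-1 beta, was measured at 356 CPM (WT) and 629.7 CPM (DB) at 12 weeks, and at 1627 CPM (WT) and 4056 CPM (DB) at 21 weeks. It was higher in DB at each age (0.82, interval 0.75 to 0.90 and 1.32, interval 1.28 to 1.35 on the log2 scale) and higher at 21 weeks in each genotype. A UMI of Il1b was found in 34.1%, 36.7%, 50.8% and 64.1% of cDC2, in 19%, 23.8%, 35.3% and 52.8% after thinning and in 5.57%, 6.35%, 11.6% and 6.59% of T cells. In macrophages its level was 49.8, 59.1, 344 and 363 CPM. The neutrophil-attracting chemokine Cxcl1 stood at 11.8 CPM (WT) and 32.6 CPM (DB) at 12 weeks, and at 74.2 CPM (WT) and 414 CPM (DB) at 21 weeks and its neighbour Cxcl2 at 334, 324, 562 and 2037 CPM. For Cxcl2 the 12-week libraries were alike (-0.05, interval -0.13 to 0.04) and 21-week-DB was higher than 21-week-WT (1.86, interval 1.81 to 1.91). Ptgs2, the inducible cyclooxygenase of prostaglandin synthesis, was highest in 21-week-DB, at 33.5 CPM (WT) and 81 CPM (DB) at 12 weeks, and at 233 CPM (WT) and 862 CPM (DB) at 21 weeks.

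The cytokine Il6 was measured at 2.92, 6.7, 20.8 and 102 CPM, and Tnf at 215, 186, 199 and 490.4 CPM. Il1rn, the natural antagonist of interleukin-1, stood at 19.8, 11.8, 21.2 and 124 CPM. Ccl7, a ligand of Ccr2, was listed at 16.1, 10.8, 27.3 and 141 CPM, and Cxcl10, which attracts T cells through Cxcr3, at 59.3, 53.3, 66.2 and 302 CPM. For these genes 21-week-DB stood above the other libraries by more than the counting intervals, with log2 DB to WT ratios of 2.29 (2.03 to 2.54), 1.30 (1.20 to 1.40), 2.55 (2.31 to 2.79), 2.36 (2.15 to 2.58) and 2.19 (2.05 to 2.33). With Ccr7- members alone the 21-week ratio of Ccl7 was 1.45. Il12b, the shared subunit of interleukin-12 and interleukin-23, was found at 30.7 CPM in 21-week-DB, against 6.58 CPM in the WT library of that age.

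The promoters of Cxcl1 and Cxcl2, neighbouring genes with the same order of libraries at 21 weeks, are printed with the kappaB core in capitals. They lie at chr5:90891085-90891244 and chr5:90903739-90903898, again as the 160 bases before the start on the plus strand of GRCm38.p6. Matches on both strands overlap in each.
Cxcl1: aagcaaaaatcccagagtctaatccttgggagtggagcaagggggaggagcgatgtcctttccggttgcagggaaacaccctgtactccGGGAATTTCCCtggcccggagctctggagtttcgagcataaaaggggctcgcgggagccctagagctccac
Cxcl2: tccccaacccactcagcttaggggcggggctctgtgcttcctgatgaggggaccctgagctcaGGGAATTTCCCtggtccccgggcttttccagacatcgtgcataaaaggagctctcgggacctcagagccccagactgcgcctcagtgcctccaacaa
The matches begin 71 and 70 bases before the start in Cxcl1 and 97 and 96 in Cxcl2. The motif was found in 5 of 20 promoters of the cytokine list, those of Cxcl1, Cxcl2, Cxcl3, Cxcl10 and Il6, in 4 of 21 of the interferon-stimulated list (Ifi209, Ifit2, Ifitm3 and Isg20), in 1 of 16 of the class I list (B2m) and in 1.21% of all promoters. Neither motif was thus found in 1 list alone.

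Receptors that sense microbes and damage were among the genes higher in 21-week-DB, with 4 of 12 ranked members past 2-fold (median 0.55), where 5.11% of all ranked genes were (median 0.05). Clec4e, Tlr2 and Clec4n reached the ranking limit of 100 CPM in 21-week-DB alone, so the limit itself partly sets this count. At the looser limit 12 of 24 were higher and 0 lower (median 1.10), where 7.04% and 6.69% of all genes were. Of 18 ranked members in C1q+ macrophages 3 were 2-fold higher (median 0.15), where 41 of 1689 ranked macrophage genes were (median 0.04). Clec4e (Mincle), a receptor for mycobacterial glycolipids, was measured at 40.1 CPM (WT) and 70.0 CPM (DB) at 12 weeks, and at 84.7 CPM (WT) and 1055 CPM (DB) at 21 weeks. Its level in 21-week-DB was far above the other libraries, with a log2 ratio to 21-week-WT of 3.64 (3.54 to 3.74), against 0.80 (0.58 to 1.02) at 12 weeks. Clec4e was found in 18.6%, 30.4%, 26.1% and 78.5% of cDC2, in 5.6%, 7.33%, 8.63% and 48.7% after thinning and in 3.04%, 3.66%, 5.92% and 4.71% of T cells. C1q+ macrophages held it at 73.2, 107, 169.7 and 368 CPM. Cd14, the co-receptor for lipopolysaccharide, stood at 128 CPM (WT) and 149 CPM (DB) at 12 weeks, and at 264 CPM (WT) and 883 CPM (DB) at 21 weeks, with a log2 ratio of 1.74 (1.66 to 1.82) at 21 weeks. Tlr2, a receptor for bacterial lipoproteins, stood at 78.5, 82.9, 90.6 and 239 CPM, and Clec4n (Dectin-2), which binds fungal mannans, at 47.2, 31.4, 29.2 and 123 CPM. Both were highest in 21-week-DB. Ccl5, which attracts T cells, stood at 3.85, 9.35, 26.6 and 186 CPM, and Tnfaip2, a gene induced by tumour necrosis factor, at 43.3, 49.6, 97.5 and 584 CPM. Their 21-week ratios were 2.81 (2.60 to 3.01) and 2.58 (2.47 to 2.69) on the log2 scale.

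Metallothionein and glucocorticoid-responsive genes showed a like order, with 3 of 7 ranked members 2-fold higher in 21-week-DB (Mt1, Mt2 and Errfi1, median 0.76), where 5.11% of all ranked genes were (median 0.05). In C1q+ macrophages 3 of 10 ranked members were (median 0.63), where 41 of 1689 ranked macrophage genes were, and in T cells 1 of 9 (median 0.71), where 29 of 1598 were. At the looser limit 7 of 13 members were higher in 21-week-DB cDC2 and 0 lower (median 1.05), where 7.04% and 6.69% of all genes were. Mt1, a metal-binding protein gene whose reads are shared in part with Mt2, was measured at 276 CPM (WT) and 187 CPM (DB) at 12 weeks, and at 267 CPM (WT) and 1046 CPM (DB) at 21 weeks. It was lower in DB than in WT at 12 weeks (-0.56, interval -0.67 to -0.45) and higher at 21 weeks (1.97, interval 1.90 to 2.05). Mt1 had the highest level in 21-week-DB in C1q+ macrophages (359, 372, 346 and 1958 CPM) and T cells (41.6, 77.2, 47.8 and 312 CPM) as well. Fkbp5, a chaperone induced by glucocorticoids, stood at 18.2, 39.7, 18.2 and 91.9 CPM, higher in DB at both ages. Hmox1, the haem oxygenase of the oxidative stress response, was measured at 59.9, 80.5, 55 and 289 CPM, with 21-week-DB the highest. The 23 ranked early response and heat shock genes, which tissue digestion is known to raise, lay below 0 in 22 cases at 12 weeks (median -0.29) and in 12 at 21 weeks (median -0.05, with Ier3 2-fold higher), where 44.7% and 43.6% of all ranked genes did. Gm42418 was lowest in 21-week-DB, as was the median mitochondrial share of cDC2 (3.12%, 2.77%, 3.36% and 2.46%). At 21 weeks macrophage, monocyte and T cell markers summed higher in DB cDC2 than in WT cDC2, at 1041 against 811 CPM, 910 against 802 CPM and 264 against 127 CPM. Their part in the differences was not tested.

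**Figure D2:**
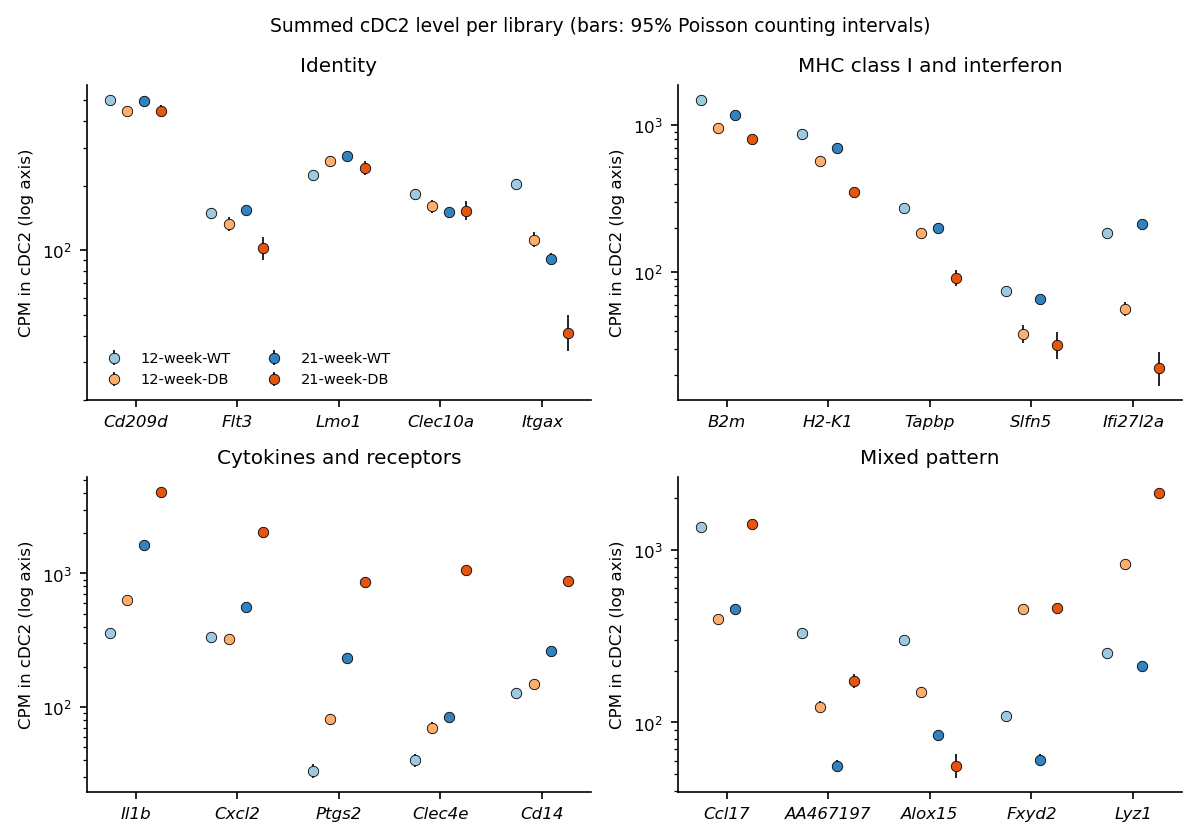
Levels of 20 genes in cDC2 (CPM, log axis) in each library, with 95% Poisson intervals, in panels for identity, class I and interferon genes, cytokines and receptors, and genes of mixed pattern. Identity genes lie close together apart from Itgax, class I and interferon genes are lower in both DB libraries, and Il1b, Cxcl2, Ptgs2, Clec4e and Cd14 are highest in 21-week-DB.

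Across ages, 1309 genes were ranked in both DB to WT comparisons, which share no library. Fxyd2 and Lyz1 were 2-fold higher in DB at both, and Ifi27l2a was 2-fold lower at both. Fxyd2, the gamma subunit of the sodium pump, stood at 108 CPM (WT) and 456 CPM (DB) at 12 weeks, and at 60.9 CPM (WT) and 459 CPM (DB) at 21 weeks, with log2 ratios of 2.07 (1.96 to 2.19) and 2.92 (2.78 to 3.05). The DB libraries were alike in Fxyd2 and both were above WT. A UMI of Fxyd2 was found in 43.2%, 77.6%, 35.8% and 73.8% of cDC2 (10.8%, 33.6%, 8.87% and 33.3% after thinning) and in 14%, 39.1%, 8.48% and 17.1% of T cells, so that the T cell share was also higher in DB at each age. In C1q+ macrophages its levels were 957, 3645, 1129 and 3936 CPM, in the same order of genotypes. Lyz1, a lysozyme gene whose reads are partly shared with Lyz2, stood at 254 CPM (WT) and 827 CPM (DB) at 12 weeks, and at 214 CPM (WT) and 2142 CPM (DB) at 21 weeks, with ratios of 1.70 (1.62 to 1.78) and 3.32 (3.26 to 3.39). Lyz2 was listed at 2269, 3529, 2203 and 5367 CPM. Lyz1 was found in 35.9%, 50.9%, 28.1% and 56.9% of cDC2 (15%, 24%, 11.9% and 43.1% after thinning) and in 6.25%, 20.1%, 6.54% and 6.59% of T cells, a share that was higher in DB at 12 weeks and alike at 21 weeks. The part of free RNA in the Fxyd2 and Lyz1 differences was not tested.

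The other genes with the largest ratios above 0 at 12 weeks stayed under 2-fold. Ecm1, an extracellular matrix protein gene, stood at 229, 415, 138 and 263 CPM, and was higher in DB at both ages (0.86, interval 0.77 to 0.95 and 0.93, interval 0.80 to 1.06). The chemokine gene Ccl6 stood at 235, 423, 256 and 270.3 CPM, Il18r1, a chain of the interleukin-18 receptor, at 77.4, 129, 75.5 and 139 CPM, and the chemokine receptor Cxcr4 at 148, 236, 180.0 and 252 CPM. Their log2 DB to WT ratios at 12 weeks were 0.85 (0.76 to 0.94), 0.73 (0.57 to 0.89) and 0.67 (0.55 to 0.78). Egr1, an early response transcription factor, was 2-fold lower in 12-week-DB, at 143, 56.1, 119.7 and 127 CPM (-1.35, interval -1.54 to -1.17).

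Ccl17 and AA467197 passed 2-fold in opposite directions at the 2 ages. Ccl17, a chemokine that attracts Ccr4+ T cells, was measured at 1354 CPM (WT) and 400.0 CPM (DB) at 12 weeks, and at 458 CPM (WT) and 1411 CPM (DB) at 21 weeks. It was lower in DB at 12 weeks (-1.76, interval -1.83 to -1.69) and higher in DB at 21 weeks (1.62, interval 1.56 to 1.68). The 56, 45, 85 and 20 cDC2 (10% of each library) with the most Ccl17 held 81.3%, 73.7%, 90.6% and 81.4% of its UMIs. A UMI of Ccl17 was found in 40.7%, 40.9%, 30.5% and 63.1% of cDC2 (25.5%, 25.1%, 15.5% and 37.4% after thinning) and in 8.78%, 1.63%, 3.89% and 1.76% of T cells, so that at 12 weeks the share of cells was alike and the level differed in the cells with the most. AA467197, which encodes a small mitochondrial protein, stood at 333 CPM (WT) and 123 CPM (DB) at 12 weeks, and at 56.3 CPM (WT) and 174 CPM (DB) at 21 weeks, with ratios of -1.43 (-1.55 to -1.31) and 1.63 (1.45 to 1.80). The sister chemokine Ccl22 was lower in 12-week-DB (63.8, 16.4, 63 and 94.5 CPM, log2 ratio -1.96, interval -2.30 to -1.64) and closer at 21 weeks (0.58, interval 0.37 to 0.79).

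**Figure D3:**
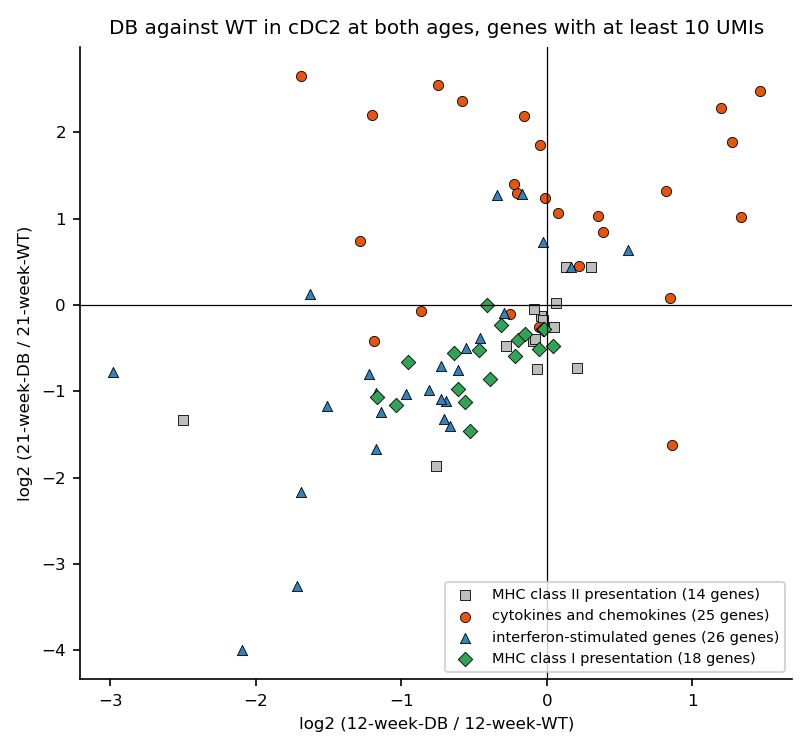
Log2 DB to WT ratio in cDC2 at 12 weeks (horizontal axis) against 21 weeks (vertical axis) for MHC class I (18), MHC class II (14), interferon-stimulated (26) and cytokine (25) genes with at least 10 UMIs at each age, 1 point per gene. All but 1 class I gene lie below 0 on each axis, the class II medians are -0.05 and -0.32, and most cytokine genes above 0 at 21 weeks.

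Plet1, Mfge8, Mmp12 and Alox15 were among the genes lower in 12-week-DB. Plet1, a surface protein of barrier tissues, stood at 104 CPM (WT) and 14.1 CPM (DB) at 12 weeks, and at 11 CPM (WT) and 54 CPM (DB) at 21 weeks. Mfge8, a bridge to apoptotic cells that Langerhans cells express strongly, stood at 206 CPM (WT) and 46.1 CPM (DB) at 12 weeks, and at 31.1 CPM (WT) and 40.1 CPM (DB) at 21 weeks. Mmp12, the macrophage elastase, stood at 352 CPM (WT) and 159 CPM (DB) at 12 weeks, and at 90.6 CPM (WT) and 138 CPM (DB) at 21 weeks. For each of them 12-week-WT was above the other libraries, and the log2 ratios of 12-week-DB to 12-week-WT were -2.88 (-3.23 to -2.55), -2.16 (-2.35 to -1.97) and -1.15 (-1.26 to -1.04). Few cells carried Mfge8 in 12-week-WT, where 10% of cDC2 held 92.7% of its UMIs, against 58.2%, 62.2% and 43.0% in the other libraries. A UMI of Mfge8 was found in 28.1%, 31.3%, 26.9% and 38.5% of cDC2 (10.3%, 7.78%, 5.08% and 4.62% after thinning) and in 17.9%, 18.1%, 18.6% and 25% of T cells, and the share was thus not lower in 12-week-DB before thinning. Alox15, a lipoxygenase induced by interleukin-4 and interleukin-13, was measured at 301, 150.2, 84.4 and 56.2 CPM. The values of several depended on the C1q limit of the rule, since with fewer than 2 C1q UMIs per member the 12-week ratios were -1.79 for Plet1, -1.58 for Mfge8, -0.39 for Mmp12 and -1.13 for Ccl17.

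Among genes lower in 21-week-DB were Tppp3, a tubulin-binding protein gene, at 631 CPM (WT) and 495 CPM (DB) at 12 weeks, and at 391 CPM (WT) and 117 CPM (DB) at 21 weeks, and Ccnd1 (cyclin D1) at 198, 163, 124 and 47.6 CPM. Both were ordered alike, with 21-week-DB the lowest and log2 ratios to 21-week-WT of -1.74 (-1.91 to -1.58) and -1.38 (-1.66 to -1.12). Lars2, a mitochondrial tRNA synthetase, stood at 1749, 1556, 1665 and 655 CPM, and Gm42418 was also among these genes. Mucl1 ranked first among the genes higher in 21-week-DB. It stood at 66.7, 78.2, 2.8 and 166 CPM, with a log2 ratio to 21-week-WT of 5.89 (5.39 to 6.44), and was found in 25, 33, 17 and 13 cDC2.

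The older and younger libraries were also compared within genotype. The 12-week matrices carry Cell Ranger 5.0.0 in their headers and the 21-week matrices 6.0.0, so age and software cannot be told apart. Neither headers nor labels name a run, and a run that differed with age could not be told apart from it either. In WT 9 of 1477 ranked genes (0.609%) were 2-fold higher at 21 weeks and 21 (1.42%) lower, and in DB 101 of 1574 (6.42%) were higher and 49 (3.11%) lower. With TMM scaling, which moved all log2 ratios by 0.23 in WT and 0.18 in DB, the counts were 17 higher and 13 lower in WT, and 131 higher and 28 lower in DB. At the looser limit of 10 UMIs the balance in DB was the reverse, with 536 of 11592 genes (4.62%) higher and 1253 (10.8%) lower, and in WT 313 of 12870 (2.43%) were higher and 974 (7.57%) lower.

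In WT the genes higher at 21 weeks included Ptgs2 (2.80, interval 2.61 to 2.99), Il1b (2.19, interval 2.13 to 2.25), Cd14 (1.04, interval 0.94 to 1.15) and the migration receptor Ccr7 (1.67, interval 1.5 to 1.85), in log2 ratios. Cytokine genes were 2-fold higher in 4 of 10 ranked cases (median 0.63, against -0.09 over all ranked genes), where 0.609% of all ranked genes were. At the looser limit 11 of 27 were higher and 0 lower (median 0.51), where 2.43% and 7.57% of all genes were. Plet1 (-3.23, interval -3.51 to -2.97), Mfge8 (-2.72, interval -2.89 to -2.56), Lpl, the lipoprotein lipase (-2.58, interval -2.69 to -2.47), and Alox15 (-1.83, interval -1.94 to -1.73) were lower. In DB 13 of 15 ranked cytokine genes were 2-fold higher at 21 weeks (median 2.50, against -0.11), where 6.42% of all ranked genes were. Of them Il6, Ccl7, Il1rn, Cxcl1, Cxcl10 and Ptgs2 reached 100 CPM in 21-week-DB and not in 12-week-DB, so the limit partly sets this count. At the looser limit 20 of 27 were higher and 1, Ccl24, lower (median 2.50), where 4.62% and 10.8% of all genes were. The largest ratios above 0 in DB were those of Ccl5 at 4.31 (3.90 to 4.75), Il6 at 3.92 (3.43 to 4.45) and Clec4e at 3.91 (3.76 to 4.07). In 21-week-DB the 20 cDC2 with the most of each gene held 98.6%, 87.5% and 56.9% of its UMIs. Retnla, a secreted product of type 2 immunity, was lower (126, 147, 50.4 and 15.4 CPM, log2 ratio -3.26, interval -3.75 to -2.81), as was the tetraspanin Cd81 (-1.5, interval -1.77 to -1.24, or -0.78 when cells were thinned to 2000 UMIs). A UMI of Retnla was found in 26.7%, 17.6%, 25.1% and 1.54% of cDC2 (7.4%, 6.0%, 5.08% and 1.03% after thinning) and in 18.8%, 9.52%, 19.4% and 0.126% of T cells, and the 56, 45, 85 and 20 cDC2 (10% of each library) with the most Retnla held 90.3%, 95.9%, 79.1% and 100% of its UMIs. Its level was thus carried by few cells. After thinning, T cells held it in 6.14%, 3.49% and 5.89% in the first 3 libraries. The counting intervals of the thinned shares overlapped between cDC2 and T cells in each of these libraries, with the cDC2 share in 12-week-DB (6.0%, interval 3.99 to 8.61) the farthest above that of T cells (2.53 to 4.69). With Ccr7- members alone the WT ratios of Ptgs2 and Il1b were 2.09 and 1.57.

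Members differed among themselves by which lectin they carried. Cells with Mgl2 and no Cd209a UMI (Mgl2-only) made up 14.6%, 14.7%, 8.49% and 12.3% of cDC2 (81, 66, 72 and 24 cells), and cells with Cd209a and no Mgl2 UMI (Cd209a-only) 11.4%, 9.11%, 13.2% and 5.64% (63, 41, 112 and 11 cells). Their UMIs were summed per library and compared over the 4 libraries with edgeR, with library as a block and both lectins left out. Of 7820 genes, 353 (4.51%) were higher in Mgl2-only cells and 396 (5.06%) lower at an adjusted p under 0.05. Cells of either kind can lack a lectin because it was not captured, and Mgl2-only cells held more UMIs in each library, with means of 15298.5, 12407.4, 15056.7 and 13827 against 10637.3, 10498.5, 12174 and 12637.9.

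Genes that respond to interleukin-4 and interleukin-13, and cell cycle genes, were among those higher in Mgl2-only cells. In the edgeR fit Alox15 was higher by 6.82 ± 0.35 (SE), adjusted p = 2.5e-07 on the log2 scale, Mmp12 by 6.13 ± 0.33 (SE), adjusted p = 2.5e-07, and Plet1 by 4.94 ± 0.57 (SE), adjusted p = 0.000282. Flt1, a receptor for vascular endothelial growth factor, was higher by 3.80 ± 0.45 (SE), adjusted p = 0.000299, and the fatty acid receptor Cd36 by 2.67 ± 0.40 (SE), adjusted p = 0.00117. Cell cycle genes were higher in 9 of 11 tested members of a list of 12, Mki67 among them (log2 fold change 2.44 ± 0.27, adjusted p = 0.000205, edgeR). Type 2 responsive genes were higher in 6 of 15 tested and lower in none. Genes named for their differences between libraries were looked up as well, against 4.51% of all genes higher in Mgl2-only cells and 5.06% lower. The lookup is no independent check, since the same cells entered both comparisons. Named genes also had to reach 100 CPM, while these shares cover all 7820 tested genes. The share among genes of like level was not taken, so the counts below are a description only. Of the 10 named as lower in DB at 12 weeks, 6 were higher in Mgl2-only cells, and of the 10 named as higher, 2. In 21-week-DB against 21-week-WT, 3 of the 10 lower and 2 of the 10 higher genes were higher in Mgl2-only cells, and 2 of the 10 lower ones were lower there. Of the 10 named as lower in 21-week-WT than in 12-week-WT, 9 were higher in Mgl2-only cells, and of the 10 named as higher, 4 were lower there. In DB the 21-week falls held 6 that were higher and 1 lower, and the 21-week rises 1 of each.

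Interferon-stimulated and early response genes were among those higher in Cd209a-only cells. By edgeR the antiviral membrane protein gene Ifitm3 was lower in Mgl2-only cells (log2 fold change -2.89 ± 0.23, adjusted p = 1.62e-05), and so was its relative Ifitm6 (log2 fold change -3.22 ± 0.23, adjusted p = 5.23e-06). The transcription factor Irf8 (log2 fold change -2.55 ± 0.30, adjusted p = 0.000299), Clec10a (log2 fold change -2.05 ± 0.22, adjusted p = 0.000175) and Flt3 (log2 fold change -1.76 ± 0.21, adjusted p = 0.000316) were lower as well in the edgeR fit. Interferon-stimulated genes were lower in Mgl2-only cells in 8 of 15 tested members and higher in none, and early response genes were lower in 16 of 25 and higher in 1. Of 24 tested genes of cDC2 and pan-DC identity, 8 were lower in Mgl2-only cells, Cd209d and Zbtb46 among them. Another 3 were higher (Itgax, Csf1r and Cd24a). Of all tested genes 5.06% were lower and 4.51% higher. The number of calls depended on the libraries, since 150 genes passed without 12-week-WT and 1230 without 21-week-DB, where 11 Cd209a-only cells were summed.

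**Figure D4:**
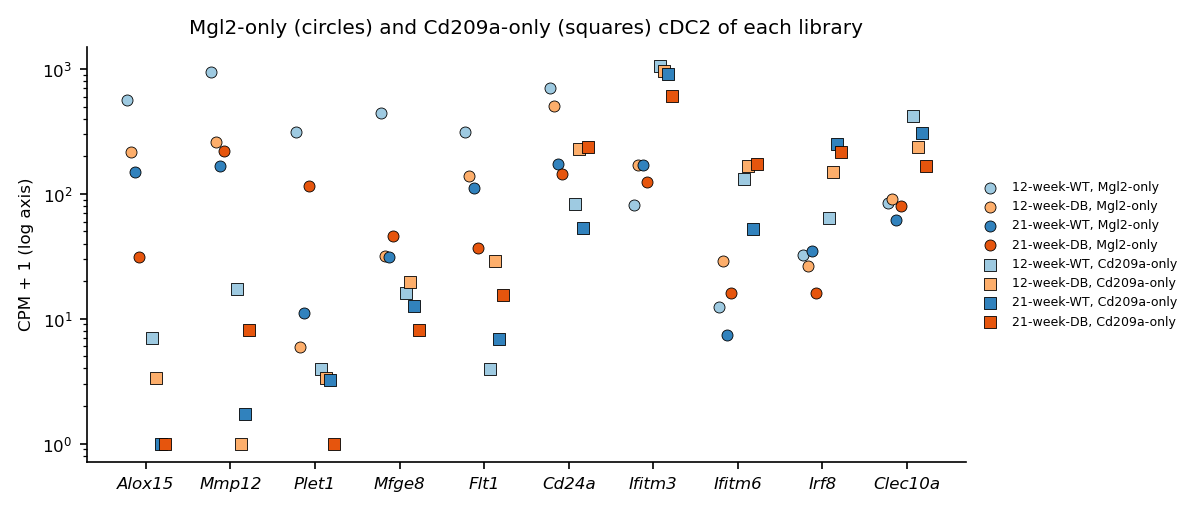
Levels (CPM + 1, log axis) of 10 genes in Mgl2-only cDC2 (circles) and Cd209a-only cDC2 (squares), with 1 point per library. Alox15, Mmp12 and Plet1 are higher in the Mgl2-only sums and Ifitm3, Ifitm6, Irf8 and Clec10a in the Cd209a-only sums.

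Ccr7, the receptor that leads mature dendritic cells to lymph nodes, was measured at 43.5 CPM (WT) and 37.4 CPM (DB) at 12 weeks, and at 139 CPM (WT) and 158 CPM (DB) at 21 weeks. It differed by less than 2-fold between genotypes at each age (-0.22, interval -0.47 to 0.04 and 0.19, interval 0.03 to 0.34) and higher at 21 weeks. A Ccr7 UMI was found in 6.85%, 8.0%, 17% and 20.5% of cDC2 (38, 36, 144 and 40 cells), in 2.53%, 4.0%, 9.81% and 12.8% after thinning, and in 2.03%, 0.726%, 2.2% and 1.05% of C1q+ macrophages, which should lack it. T cells, some of which express Ccr7, held a UMI in 12.2%, 11.6%, 13.9% and 11.2%.

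Genes of the maturation program were higher in Ccr7+ cDC2 than in Ccr7- cDC2 of the same library. With edgeR over 4 libraries, 814 of 9963 genes (8.17%) were higher and 283 (2.84%) lower. Of the 26 genes of maturation, migration and costimulation, 20 were tested, 16 were higher and 0 lower at an adjusted p under 0.05. Ccl22 differed by 2.95 ± 0.18 (SE), adjusted p = 5.76e-07, the costimulatory ligand Cd80 by 2.02 ± 0.17 (SE), adjusted p = 1.9e-06, Cd83 by 1.93 ± 0.14 (SE), adjusted p = 1.03e-06, and the inhibitory ligand Cd274 (PD-L1) by 2.01 ± 0.25 (SE), adjusted p = 6.64e-05 in this edgeR fit. The nuclear receptor Nr4a3, needed for DC migration, was higher by 2.60 ± 0.20 (SE), adjusted p = 1.34e-06, and Il12b by 5.90 ± 0.48 (SE), adjusted p = 4.6e-06. Cytokine genes were higher in 17 of 27 tested members, Il1b by 2.17 ± 0.18 (SE), adjusted p = 2.17e-06 (edgeR), and lower in 1, Ccl6.

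By edgeR the fractalkine receptor Cx3cr1 was lower in Ccr7+ cDC2 (log2 fold change -2.16 ± 0.31, adjusted p = 0.000287), as was fibronectin, Fn1 (log2 fold change -1.38 ± 0.14, adjusted p = 1.17e-05). Class I genes were higher in 1 of 18 tested, the chaperone Calr. Ccr7+ cells held more UMIs, with means of 16544.9, 13312.8, 16214 and 15320.3 against 13337.3, 12532.3, 13946.7 and 13253.6. Without 21-week-WT, 630 genes passed in place of 1097.

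**Figure D5:**
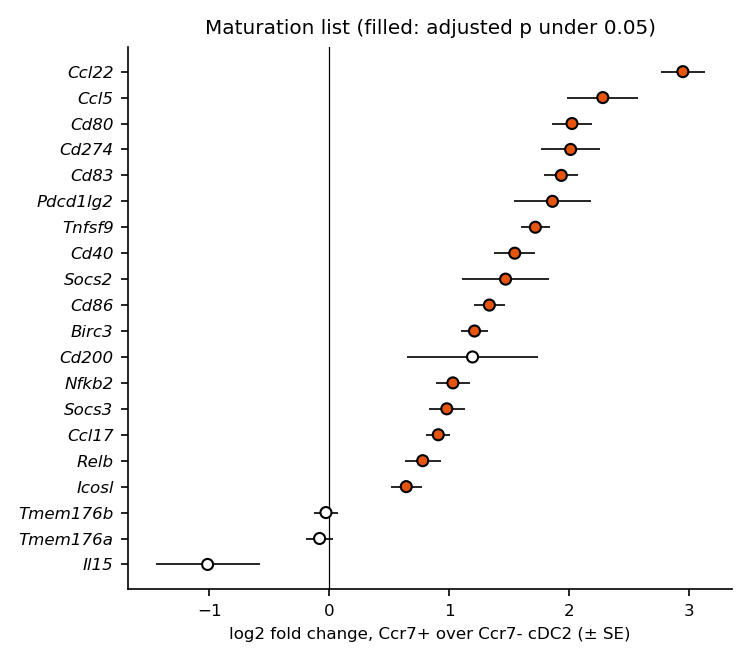
Log2 fold change ± SE in edgeR of 20 maturation genes between Ccr7+ and Ccr7- cDC2 over 4 libraries, with filled points at an adjusted p under 0.05. Filled points, 16 in all, lie above 0, and Cd200, Tmem176a, Tmem176b and Il15 are open.

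Against the dendritic cells most like them, cDC2 were set beside cDC1 in 3 libraries, since 21-week-DB held 3 cDC1. Libraries were a block, and genes read by the rule were left out. With edgeR 1393 of 10824 genes (12.9%) were higher in cDC2 and 1307 (12.1%) lower. Cd209d was higher by 6.81 ± 0.19 (SE), adjusted p = 1.25e-14, Irf4 by 3.02 ± 0.18 (SE), adjusted p = 2.7e-10, and Il1rl1, the receptor for interleukin-33, by 4.17 ± 0.21 (SE), adjusted p = 2.71e-11 in this edgeR fit. Type 2 responsive genes were higher in 14 of 20 tested and pattern recognition receptors in 17 of 24. The 8 tested cDC1 markers were lower in cDC2, 8 of 8, Irf8 among them (log2 fold change -5.48 ± 0.17, adjusted p = 1.56e-14, edgeR). Flt3 was lower in cDC2 than in cDC1 (log2 fold change -0.61 ± 0.10, adjusted p = 7.33e-05, edgeR), as were 8 of 12 cell cycle genes. Without 21-week-WT, 1243 genes passed in place of 2700.

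Langerhans-like cells, with at least 3 Cd207 UMIs, numbered 10, 25, 8 and 10, and were compared in the 3 libraries with 10 or more. By edgeR 362 of 9348 genes (3.87%) were higher in cDC2 and 509 (5.45%) lower. Clec10a was higher in cDC2 by 2.77 ± 0.39 (SE), adjusted p = 2.02e-06 and Fn1 by 2.98 ± 0.39 (SE), adjusted p = 4.5e-07, while Mfge8 (log2 fold change -5.90 ± 0.32, adjusted p = 3.84e-17) and the prostaglandin D synthase Hpgds (log2 fold change -7.30 ± 0.37, adjusted p = 4.98e-18) were lower (edgeR). None of 13 class II genes passed. Without 12-week-DB 374 genes passed, and 436 without 12-week-WT.

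Beside C1q+ macrophages, over 4 libraries, 3151 of 13224 genes (23.8%) were higher in cDC2 and 3331 (25.2%) lower by edgeR. Flt3 was higher by 3.96 ± 0.18 (SE), adjusted p = 3.71e-06, Lmo1 by 4.0 ± 0.16 (SE), adjusted p = 2.6e-06, and H2-Ab1 by 3.01 ± 0.40 (SE), adjusted p = 0.000587 in the edgeR fit. Class II genes were higher in 11 of 14 tested, cell cycle genes in 12 of 12, and macrophage markers were lower in 15 of 15. Nr4a3 was higher in cDC2 (log2 fold change 3.69 ± 0.16, adjusted p = 2.92e-06, edgeR), and the hyaluronan receptor gene Lyve1 lower (log2 fold change -7.05 ± 0.29, adjusted p = 2.84e-06). The rule read few genes, and genes that vary with those or with depth enter these comparisons.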

How the data were processed

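The authors used Cell Ranger on mm10 (5.0.0 in the processing notes and the 12-week file headers, 6.0.0 in the 21-week headers) and deposited raw UMI counts per gene and barcode, in 4 libraries of 32285 genes. The study removed ambient RNA and doublets in its own analysis, but neither was removed from the counts here. Counts were read with Python 3.11.15 and scanpy 1.11.5. A barcode needed 200 genes and no more than 10% mitochondrial UMIs, cDC2 were gated on raw counts, and their UMIs were summed per library and divided by the total (CPM). Intervals were exact Poisson for levels, conditional binomial for ratios and Clopper-Pearson for shares (95%), and cover counting error only. Genes were ranked at 100 CPM in the higher library and 50 UMIs over both. Populations within libraries, which share a pool of mice, were compared with edgeR 4.0.16 (quasi-likelihood test, TMM, filterByExpr, library as a block, Benjamini-Hochberg adjustment; sums of at least 10 cells); log2 fold changes are given ± SE. On simulated data for the macrophage comparison (13032 genes) 66 of 100 genes changed 2-fold and 99 of 100 changed 4-fold were recovered with 4 false calls, and for the Mgl2-only comparison (7714 genes) 52 and 100 of 100 with 3. The simulation drew every sum from 1 common profile with a fixed dispersion and no difference between libraries. Changes were set only in genes with enough expected counts. It therefore does not give the error rate of the calls in the real libraries. Named genes were the 10 ranked genes with the largest ratio in each direction of a comparison (for edgeR, called, at 100 CPM or more and in 1 direction in all libraries), and any gene of the lists. Members, lists and comparisons were chosen with earlier results of these data known. Promoters came from RefSeq. Alternatives were DESeq2 1.42.0, other limits, thinning, Scrublet removal and leaving out each library.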

Additional observations from a re-analysis of the deposited data

Results flagged for a closer look

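Ccl17 and AA467197 were singled out because their 2-fold differences between DB and WT ran in opposite directions at the 2 ages. Ccl17 had a log2 DB to WT ratio of -1.76 at 12 weeks and 1.62 at 21 weeks. AA467197 had ratios of -1.43 and 1.63. With 1 library per condition the difference between ages was not tested. In C1q+ macrophages Ccl17 stood at 127, 23.5, 89 and 32.8 CPM (WT then DB at 12 weeks, then WT and DB at 21 weeks).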

How the results depend on the processing

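Limits: each condition is 1 library of pooled mice, so no difference between conditions has a replicate check, and ambient RNA and doublets remain in the counts. Counted among cDC2 and C1q+ macrophages alone (a denominator added after the data were seen), the DB to WT ratios of shares were 0.879 and 0.372, and under the other 11 gates and denominators they lay between 0.602 and 0.728 at 12 weeks and between 0.168 and 0.206 at 21 weeks. In place of 11 genes past 2-fold between 12-week-DB and 12-week-WT, 23 passed at a minimum of 50 CPM, 6 when every cell weighed the same and 846 with 10 UMIs and no CPM minimum. The counts at 50 CPM and at 10 UMIs were 178 and 1687 in place of 90 for 21-week-DB against 21-week-WT, 54 and 1287 in place of 30 for 21-week-WT against 12-week-WT, and 261 and 1789 in place of 150 for 21-week-DB against 12-week-DB. The genes named by rank, 10 per direction of each comparison between libraries (80 results), gave 1317 values close to the reported ones. Another 42 values moved by more than a fixed step on the log2 scale, or changed sign in a gene under 2-fold. Among genes past 2-fold 0 reversed. The step was not the counting interval, so a value counted as close can lie outside that interval. These alternatives were not run for genes printed only from the lists. The libraries pair the populations. Without that block (no replicate block) edgeR called 1780 genes in place of 2700 against cDC1, 368 in place of 871 against Langerhans-like cells, 260 in place of 749 for Mgl2-only cells and 390 in place of 1097 for Ccr7+ cells. DESeq2 called 1615, 545 and 365 in the first 3 of these. Thinning to 2000 UMIs gave 951, 278, 261 and 331, and 3879 in place of 6482 against C1q+ macrophages, and Scrublet removal gave 1219 for Mgl2-only cells. Leaving out 1 library gave 1243 to 2849, 374 to 930, 5028 to 6515 (macrophages), 150 to 1230 (Mgl2-only) and 630 to 960 (Ccr7+). The causes were not tested.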

Other observations

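Lipid handling genes differed in both directions in 21-week-DB cDC2. Of 6 ranked members of a list of 20, 2 were 2-fold higher than in 21-week-WT (Plin2 and Apoe) and 1 was lower (Scd2), against 5.11% and 1.11% of all ranked genes. At the limit of 10 UMIs 7 of 20 were higher and 4 lower, against 7.04% and 6.69%. The genes described here were chosen after their values had been seen. Hmgcs1, an enzyme of cholesterol synthesis, was measured at 78 CPM (WT) and 47.8 CPM (DB) at 12 weeks, and at 60.7 CPM (WT) and 27.4 CPM (DB) at 21 weeks, and the desaturase Scd2 at 107, 66.7, 102 and 45.7 CPM (WT then DB at 12 weeks, then WT and DB at 21 weeks). Both were lower in DB at each age, and the log2 DB to WT ratios of Hmgcs1 were -0.71 (-0.92 to -0.5) and -1.15 (-1.52 to -0.80). Abca1, which exports cholesterol, stood at 39.5, 28.9, 40.6 and 99 CPM, and Plin2, a lipid droplet coat protein, at 103, 111, 67.1 and 139 CPM, both highest in 21-week-DB. Cd36 was listed at 54.1, 55.9, 8.31 and 54 CPM, lowest in 21-week-WT.

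Most cell cycle genes were lower in 21-week-DB at the looser limit, with Mki67 an exception. Of the 12 listed, 2 were ranked at 100 CPM and 50 UMIs, and neither passed 2-fold (median log2 ratio 0.03, against 0.05 over all ranked genes). At the limit of 10 UMIs 9 of 12 were 2-fold lower than in 21-week-WT and 0 higher (median log2 ratio -1.30, against 0.02), where 6.69% of all genes were lower. In T cells 3 of 4 ranked cell cycle genes were 2-fold lower (median -2.66), where 35 of 1598 ranked T cell genes were (median 0.03). Mki67, a proliferation marker, stood at 74, 65.3, 84.8 and 143 CPM, and Top2a, the topoisomerase of dividing cells, at 89.4, 57.3, 39.2 and 15 CPM. The first was highest and the second lowest in 21-week-DB. Il10, an anti-inflammatory cytokine, was measured at 7.31, 3.0, 27.6 and 46.1 CPM, higher in both 21-week libraries.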
